A study of Mus musculus with 6 samples.

Results

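The sirtuin genes Sirt1 to Sirt7 were followed in mouse liver RNA from wild-type mice and from mice lacking SIRT7. The members are the 7 listed family genes, each represented by the array probe sets whose annotation gives that gene as the single symbol. Of the 7 genes, 5 had such a probe set, 1 each, among 12393 genes on the array: Sirt1, Sirt2, Sirt3, Sirt4 and Sirt7. Sirt5 and Sirt6 were not analysed here. All 5 passed the filter used for testing, a mean log2 value of at least 4 over the arrays, which 8343 genes passed; Sirt7 did so through the wild-type livers alone, since its knockout values lie below that level.

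The groups were 3 livers carrying the wild-type Sirt7 allele and 3 livers with the knock-out allele, each hybridised to its own 1-colour Affymetrix array, and the labels state that all were treated alike. How the allele was made, whether it is absent from the whole animal, and the mice's strain, age and sex are details not given in the sources used here. No label states that each sample is its own animal; p-values therefore measure the spread between samples, which may be technical. Values are log2 GCRMA values, the authors' background-corrected summary of each probe set, and every difference is knockout minus wild type.

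Sirtuins use NAD, and not zinc, to remove acetyl and other acyl groups from lysines, which ties their activity to the metabolic state of the cell. SIRT1, SIRT6 and SIRT7 are mainly nuclear, with SIRT7 enriched in the nucleolus, SIRT2 is mainly cytoplasmic, and SIRT3, SIRT4 and SIRT5 are mitochondrial. In liver the family is known for its part in fasting metabolism, fatty acid oxidation and ammonia handling, and SIRT7 is known to act at promoters to which it is brought by DNA-binding factors such as the ETS factor ELK4. Because the family shares its cofactor and some substrates, the comparison addresses whether the transcripts of the other members differ in livers that lack one of them.

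Stretches of DNA directly before 2 of the start sites are shown, that of the deleted gene and that of Sirt1, the member whose promoter window holds the DNA motif bound by MYC, the factor named in the study's title. Both are from RefSeq on GRCm38.p6, written 5′ to 3′ on the gene's own strand and ending at the base before the start site. The Sirt7 stretch is chr11:120625015-120625116, on the minus strand, 102 bases long because it stops where the annotation of the neighbouring gene Mafg begins. The Sirt1 stretch is chr10:63339036-63339285, also on the minus strand and 250 bases long. Capitals mark CCGGAAG, the core of sites for ETS factors, searched on both strands, and CACGTG, the palindromic E-box; the 2 motifs do not overlap each other.
Sirt7: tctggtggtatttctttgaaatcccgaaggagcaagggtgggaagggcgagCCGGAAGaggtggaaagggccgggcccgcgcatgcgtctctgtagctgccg
Sirt1: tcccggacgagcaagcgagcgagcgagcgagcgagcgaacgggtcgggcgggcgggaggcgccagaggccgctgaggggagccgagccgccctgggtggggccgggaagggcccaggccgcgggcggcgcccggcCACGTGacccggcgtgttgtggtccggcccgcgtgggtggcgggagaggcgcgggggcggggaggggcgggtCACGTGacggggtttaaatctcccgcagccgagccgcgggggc

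Over whole promoter windows of 300 bases, reaching from 250 bases before the start site to 50 after it, Sirt7 held 2 matches to CCGGAAG, the marked one beginning at -51 and another beginning at 20. Sirt3 and Sirt6 held 1 match each, on the opposite strand, in 1 of their 2 windows, beginning at -85 and at -35. Of all 32851 promoter windows in the table, 8.86% held the motif and 1.48% held it at least 2 times. The E-box was found in the Sirt1 window alone among the 7 genes, at -115 and -43, against 7.15% of all windows with at least 1 and 0.594% with at least 2. A match says only that the letters are there.

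Sirt7 fell to the low end of the scale in the knockout livers. Its probe set, 1424238_at, read 9.85, 9.80 and 9.57 in wild type and 2.38, 3.11 and 2.86 in knockout, each in the order of replicates 1 to 3. The lowest wild-type liver was thus far above the highest knockout liver, and all knockout values lay under 4, the level below which genes were not tested. Group means were 9.74 ± 0.15 with SIRT7 and 2.78 ± 0.37 without it (SD, n = 3 each). Their difference of -6.96 log2 units had a limma standard error of 0.23, a 95% interval from -7.48 to -6.44 and an adjusted p of 3.99e-06 over all tested genes. Of the 8343 genes tested, 0.024% were called lower at an adjusted p under 0.05, and Sirt7 had the smallest p of all. Sirt7 is the deleted gene and passed the filter through the wild-type livers alone. Its p and rank therefore serve only as a check of the labels. An exact permutation test of Sirt7 alone gave p = 0.1 (2-sided), the smallest that 3 against 3 arrays can give. At the low end of the GCRMA scale the values carry no detection call and are not proportional to RNA, so the size of the fall is that of the array value. The sources used here do not say whether this probe set is within the deletion.

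None of the other measured sirtuin transcripts passed the test. Over Sirt1, Sirt2, Sirt3 and Sirt4, limma called 0 of 4 genes, against 0.024% of all tested genes. Of the 4, 0 had an unadjusted p under 0.05, against 6.46% of all tested genes (3.04% higher and 3.42% lower). The ordinary 2-sample test called 0 of all 8343 tested genes, with Sirt7 at an adjusted p of 0.0592. Its 0 for these 4 genes therefore adds nothing. Of the 4 genes, 3 had a lower mean in knockout livers and 1 a higher mean, while the median difference over all tested genes was -0.032 and 45.4% of them had a higher mean. In bulk liver, fewer cells of a type and less RNA per cell cannot be told apart.

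**Figure D1:**
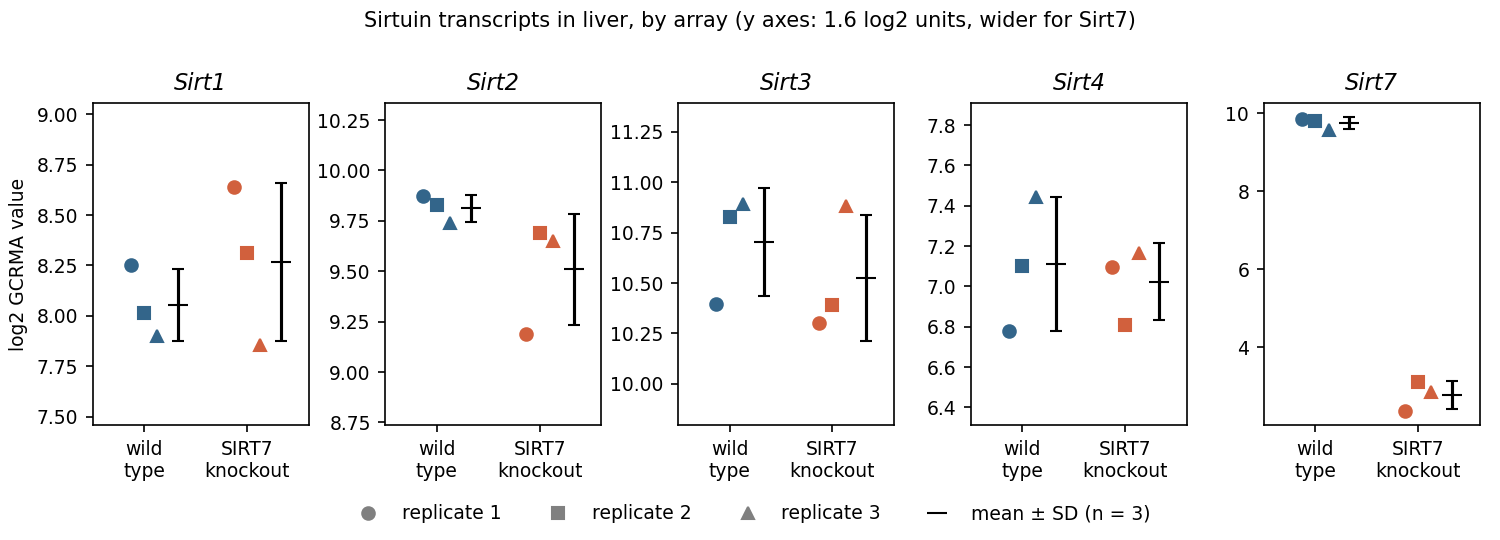
Log2 GCRMA value of each measured sirtuin probe set in every liver, with wild type in blue and SIRT7 knockout in orange, symbols for replicates 1 to 3, and black bars for the group mean ± SD. Sirt7 falls from values of at least 9.57 to at most 3.11; Sirt2 is the only other gene whose groups do not overlap, by 0.05 log2 units.

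Sirt1, the nuclear deacetylase best known for acting on PGC-1 alpha, FOXO and p53 proteins, read 8.25, 8.01 and 7.90 in the wild-type and 8.64, 8.31 and 7.85 in the knockout livers. The groups overlapped, since knockout replicate 3 held the lowest value of all 6 and knockout replicates 1 and 2 the highest ones. The means were 8.05 ± 0.18 and 8.27 ± 0.39 (SD, n = 3 each), a difference of 0.21 (SE 0.24, 95% interval -0.33 to 0.76, limma adjusted p = 0.863). In linear terms the interval reached from 0.794 to 1.69 times the wild-type value. Without knockout replicate 1 the difference was 0.027, and without knockout replicate 3 it was 0.42.

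Sirt2 encodes the cytoplasmic deacetylase that acts on tubulin. Its probe set, 1423507_a_at, read 9.87, 9.83 and 9.74 in wild type and 9.19, 9.69 and 9.65 in knockout. Every knockout value lay under every wild-type value, but for knockout replicates 2 and 3 the distance to the wild-type livers was small. The groups did not overlap in 9.74% of all tested genes, and in 1 of these 4. The difference was -0.30 (SE 0.20, 95% interval -0.76 to 0.16, limma adjusted p = 0.797), from 9.81 ± 0.07 to 9.51 ± 0.28 (SD, n = 3 each). Knockout replicate 1 supplied much of that distance, and without it the difference was -0.14.

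Sirt3, the main deacetylase of the mitochondrial matrix, acts on enzymes of fatty acid oxidation and on superoxide dismutase. Its values were 10.40, 10.83 and 10.89 in wild-type and 10.30, 10.39 and 10.88 in knockout livers. The groups overlapped, with 1 low and 2 high livers in wild type and 2 low and 1 high in knockout. Knockout differed by -0.18 (SE 0.23, 95% interval -0.71 to 0.35, limma adjusted p = 0.879). The means were 10.71 ± 0.27 and 10.53 ± 0.31 (SD, n = 3 each). The difference was -0.067 without knockout replicate 1 and -0.085 without wild-type replicate 3, against -0.36 without knockout replicate 3 and -0.33 without wild-type replicate 1.

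Sirt4 encodes a mitochondrial ADP-ribosyltransferase and lipoamidase that restrains glutamate dehydrogenase. It read 6.78, 7.10 and 7.45 in wild-type and 7.10, 6.81 and 7.17 in knockout livers. The wild-type livers held both the lowest and the highest value. The means were 7.11 ± 0.33 and 7.02 ± 0.19 (SD, n = 3 each), and the difference was -0.085 (SE 0.23, 95% interval -0.60 to 0.43, limma adjusted p = 0.956). The sign of that difference turned without wild-type replicate 3, the liver with the highest value, to 0.083, and without knockout replicate 2 to 0.022.

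The 4 intervals bound what these arrays could have missed. The widest reach in either direction was -0.76 log2 units, for Sirt2, and 0.76, for Sirt1, so that a change of 1 log2 unit in either direction lies outside all 4 intervals. The residual SD of the 4 genes ran from 0.201 for Sirt2 to 0.306 for Sirt1, on either side of the median of 0.282 over all tested genes. Sirt2 was the steadiest in wild type, with a range of 0.133 over 3 livers, and spread over 0.497 in knockout. Levels of different probe sets cannot be set against each other, so no order among the members is given.

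**Figure D2:**
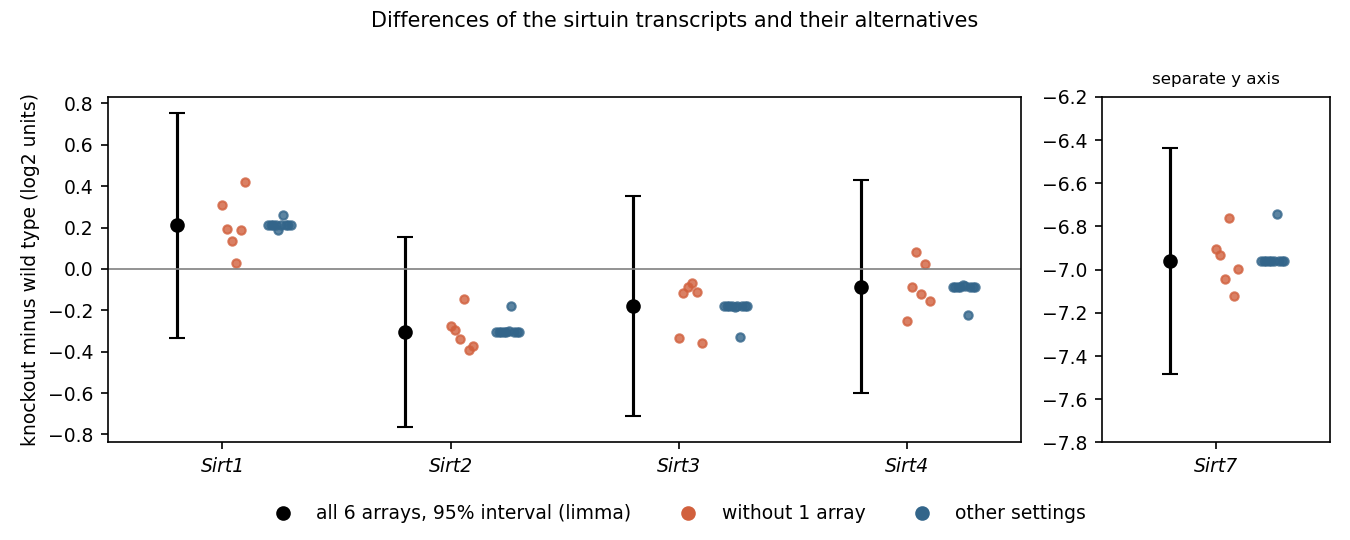
Knockout minus wild type in log2 units for each sirtuin gene, with Sirt7 on its own axis; black points and bars are the difference on all 6 arrays with its limma 95% interval, orange points leave out 1 array each, blue points are the other settings. The intervals of Sirt1 to Sirt4 all cross 0, and Sirt7 stays between -7.12 and -6.74.

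Within the groups the sirtuin transcripts varied from liver to liver in different directions. Each value was set against its group's mean to remove the difference between groups. Sirt1 and Sirt3 lay on opposite sides of their group means in 6 of 6 livers. Sirt1 stood 0.37 above its mean in knockout replicate 1 and 0.41 below it in knockout replicate 3, where Sirt3 stood 0.22 below and 0.36 above. Over the 10 pairs of genes, Pearson correlations of these deviations over 6 arrays ran from -0.93 for Sirt1 with Sirt3 (Spearman -0.94) to 0.96 for Sirt2 with Sirt7 (Spearman 0.94). Without the 2 arrays farthest from the median of the first gene they were -0.97 and 0.82. These are descriptions: centring leaves fewer than 6 independent values, all genes of an array share its RNA and normalization, and for Sirt7 the 3 knockout values lie at the low end of the scale.

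**Figure D3:**
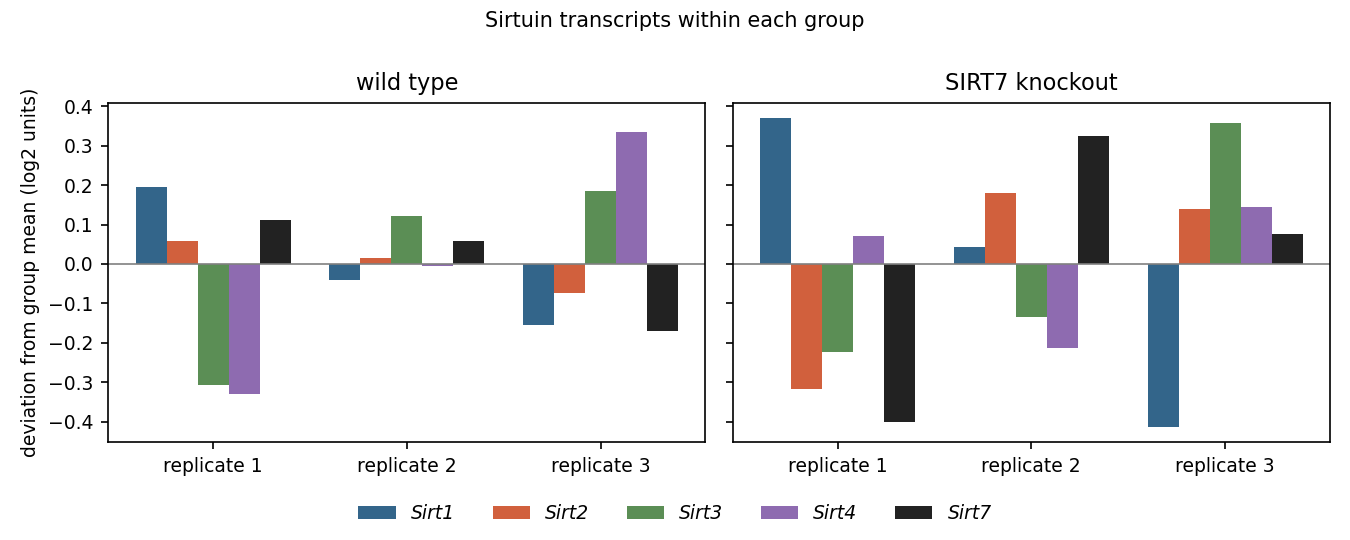
Deviation of each sirtuin gene from its group mean in log2 units, by liver, with wild type on the left, SIRT7 knockout on the right and 1 bar per gene. Sirt1 and Sirt3 point in opposite directions in every liver, and knockout replicate 1 has the lowest Sirt2 and Sirt7 and the highest Sirt1 of its group.

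Knockout replicate 1 had the highest value on the first principal component over the tested genes, at 36.2, against 16.4 and -5 for the other knockout livers. Wild-type replicates 1 to 3 lay at -25.1, -28.3 and 5.9, and the component held 45.7% of the variance. The Sirt1, Sirt2 and Sirt3 differences without knockout replicate 1 are given above. Wild-type replicate 3 correlated with the knockout livers at 0.972 to 0.979 over the tested genes and with the other wild-type livers at 0.968 and 0.971, and array weights were lowest for knockout replicate 3 (0.31) and this liver (0.455). The livers expressed the hepatocyte markers throughout: 7 of 8 were on the array, with means over 6 livers of 11.1 to 13.5, and their summed level on the log2 scale was 15.5 to 15.6 in wild type and 15.4 to 15.7 in knockout. Of 42 markers of Kupffer, endothelial, stellate, bile duct, lymphoid, blood, pancreatic and muscle or mesothelial cells, 28 were tested and limma called 0, against 0.024% of all tested genes. At an unadjusted p under 0.05 there were 2, or 7.14% against 6.46% of all tested genes: the macrophage marker Cd68 (0.50, SE 0.20, limma adjusted p = 0.77) and the bile duct marker Sox9 (-0.91, SE 0.31, limma adjusted p = 0.746). Both were singled out once their values had been seen. Groups did not overlap in either, nor in 9.74% of all tested genes. Of the markers on the array, 5 of 6 Kupffer cell and macrophage, 4 of 5 endothelial and 4 of 5 lymphoid ones had a higher mean in knockout. So did 2 of 4 bile duct, 2 of 4 blood, 1 of 2 pancreatic, 1 of 5 stellate and 1 of 5 muscle or mesothelial ones, against 45.4% of all tested genes. The part of these markers in the sirtuin values was not tested.

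For each sirtuin gene the 3 genes with the most similar pattern were taken, by the Pearson correlation of group-centred values over the 6 arrays. They were Ptbp2, Ltn1 and Hacd1 for Sirt1 (0.993 to 0.994), and Brat1, Wdtc1 and Vps35l for Sirt2 (0.994 to 0.999). For Sirt3 they were Eef1a1, Fam120b and Trap1 (0.998 to 0.999), for Sirt4 Kansl2, Saysd1 and Mrpl17 (0.996 each), and for Sirt7 Ttc8, Aco1 and Stard8 (0.994 to 0.998). With 6 arrays such values are common: between 47 genes, for Sirt7, and 194 genes, for Sirt3, of the 8342 others exceeded 0.95. No sirtuin gene was among the 3 nearest of another.

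The genes around the family were read from 8 lists: other enzymes that add or remove acetyl groups, enzymes that make or use NAD, and known partners and substrates of each sirtuin. Together they held 118 genes, of which 94 were on the array and 91 were tested. Limma called 0 of the 91, against 0.024% of all tested genes; 3 were higher and 2 lower at an unadjusted p under 0.05, 5.49% against 6.46% of all tested genes. The ordinary 2-sample test called 0 of all tested genes, so its 0 for the lists adds nothing. With limma's array weights, 18 of them and 1748 genes in all were called.

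Among the zinc-dependent histone deacetylases, which do not use NAD, 7 of 11 genes were tested. The differences ran from -0.20 for Hdac7 to 0.31 for Hdac5, with 2 higher and 5 lower, a median of -0.049 and 0 genes at an unadjusted p under 0.05. The balance turned to 5 higher and 2 lower without wild-type replicate 2 (median 0.016) or knockout replicate 1 (0.074) and to 4 and 3 with array weights (0.013). Hdac5 itself differed by 0.076 without knockout replicate 3 and by 0.63 without knockout replicate 1. On the list of lysine acetyltransferases, 8 of 13 genes were tested. Their median of -0.12 ran from -0.26 without wild-type replicate 3 to 0.077 without knockout replicate 3. Crebbp, which encodes the coactivator CBP, read 9.54, 9.43 and 9.24 in wild-type and 8.74, 8.90 and 9.07 in knockout livers. All knockout values were lower, and groups did not overlap in 9.74% of all tested genes. The difference was -0.50 (SE 0.19, limma adjusted p = 0.76). Kat6b differed by -0.45 (SE 0.24, limma adjusted p = 0.789), by -0.24 without wild-type replicate 2 and by -0.68 without wild-type replicate 3.

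The NAD synthesis list holds the enzymes that make the sirtuin cofactor from tryptophan and from nicotinamide, with some genes that do not make NAD: Nadk, which turns it into NADP, the transhydrogenase Nnt, the NAD carrier Slc25a51 and Nnmt, which methylates nicotinamide. Of its genes 15 of 21 were tested, and 13 had a lower and 2 a higher mean in knockout livers. Of all tested genes, 45.4% had a higher mean. The list's balance was 11 lower and 4 higher without wild-type replicate 2, and 12 and 3 with the mean of probe sets. The median difference of the list was -0.32, beside -0.032 over all tested genes. It lay between -0.33 and -0.19 under the alternatives, the weakest with the mean of each gene's probe sets. No member was called, and 1 was lower at an unadjusted p under 0.05, 6.67% of the list against 6.46% of all tested genes. That gene was Kynu, the kynureninase gene of the tryptophan route, at 7.53, 6.89 and 5.85 in wild-type and 6.23, 5.89 and 5.01 in knockout livers. The groups overlapped, and the difference of -1.04 (SE 0.45, limma adjusted p = 0.772) moved to -0.66 without wild-type replicate 1 and -1.50 without wild-type replicate 3. Nmnat3, which encodes a mitochondrial NAD-forming adenylyltransferase, differed by -0.65 (SE 0.31, limma adjusted p = 0.773), and by -0.29 without knockout replicate 3, at 6.33 the lowest of the 6 livers. Nampt, the rate-limiting enzyme of NAD salvage, differed by -0.050 (SE 0.21), and by 0.12 without wild-type replicate 2; it falls outside the rule for named genes and was chosen after its values were seen. Of the other NAD-using enzymes, 11 of 17 were tested, with a median of -0.11. Parp3 differed by -0.60 (SE 0.32) and Parp4 by -0.34 (SE 0.20), and 0 had an unadjusted p under 0.05.

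Among partners and substrates of SIRT1, 12 of 15 genes were tested, 8 higher and 4 lower, with a median of 0.045 that ranged from -0.072 to 0.09 under the alternatives. Srebf1, the gene of the lipogenic factor SREBP-1, differed by -0.59 (SE 0.26, limma adjusted p = 0.773). It read 10.95, 10.95 and 10.92 in wild-type and 9.97, 10.15 and 10.93 in knockout livers, so that the groups overlapped. The Srebf1 difference was -0.40 without knockout replicate 1 and -0.88 without knockout replicate 3. Ppara, the gene of the fasting regulator PPAR alpha, differed by 0.44 (SE 0.22, limma adjusted p = 0.775). For the mitochondrial sirtuins, 18 of 19 substrate genes were tested, with differences of -0.22 to 0.54 and a median of -0.070 that ranged from -0.11 to -0.018 under the alternatives. Idh2, which encodes the NADP-linked isocitrate dehydrogenase that SIRT3 deacetylates, differed by 0.54 (SE 0.29), by 0.33 without wild-type replicate 1 and by 0.87 without wild-type replicate 3. Glud1, the glutamate dehydrogenase gene, differed by 0.29 (SE 0.21), by 0.46 without wild-type replicate 3, and by 0.057 on its other probe set.

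The SIRT2 list was the smallest, with 5 of 7 genes tested, all 5 with a higher mean, against 45.4% of all tested genes, a median of 0.46 and 2 higher at an unadjusted p under 0.05, against 3.04% of all tested genes. It was 4 of 5 with the mean of probe sets, with array weights, and without wild-type replicate 1 or 3 or knockout replicate 1. Among these is Cdh1, the E-cadherin gene, which is not a SIRT2 partner and was entered in error. Tuba1a, an alpha-tubulin gene, read 9.18, 8.68 and 9.43 in wild-type and 10.17, 9.96 and 9.34 in knockout livers, a difference of 0.73 (SE 0.28, limma adjusted p = 0.77) with overlapping groups. The probe sets of alpha-tubulin genes can share signal, so that this value is uncertain. Cdc20, the mitotic activator of the anaphase-promoting complex, read 5.05, 2.66 and 7.84 in wild-type and 7.49, 7.97 and 7.59 in knockout livers. Wild-type replicate 3 lay among the knockout livers. Wild-type replicate 2, at 2.66, lay at the low end of the scale, where values are not proportional to RNA. The size of the Cdc20 difference is therefore that of the array value. The difference was 2.50 (SE 1.04, limma adjusted p = 0.772), 3.83 without wild-type replicate 3 and 1.24 without wild-type replicate 2; its other probe sets differed by 1.48 and 1.09. The median of the list lay between 0.15, when wild-type replicate 2 was left out, and 1, under array weights.

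Of the partners and substrates of SIRT6 and SIRT7, all 16 were tested, 8 higher and 8 lower, with a median of -0.047 that ranged from -0.066 to 0.06 under the alternatives. Nrf1, the gene of nuclear respiratory factor 1, which drives mitochondrial genes, read 5.06, 5.02 and 5.03 in wild-type and 5.28, 5.50 and 5.56 in knockout livers. The groups did not overlap, as in 9.74% of all tested genes. The difference of 0.41 (SE 0.18, limma adjusted p = 0.772) was smaller with the mean of its probe sets, at 0.18. On its other probe sets Nrf1 differed by -0.103 and 0.249. Kat2a, the acetyltransferase gene also counted above, differed by 0.28 (SE 0.21, limma adjusted p = 0.806). It differed by 0.14 without knockout replicate 3, 0.45 without knockout replicate 2 and 0.055 with array weights, and by -0.099 and 0.33 on its other probe sets. Elk4, the gene of the ETS factor named above, differed by -0.19 (SE 0.22), by -0.029 without knockout replicate 1 and by 0.024 with the mean of its probe sets. Myc differed by -0.15 (SE 0.28), and by 0.15 without knockout replicate 1, at 3.48 the lowest of the 6 livers. Both fall outside the rule for named genes and were chosen after their values were seen.

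**Figure D4:**
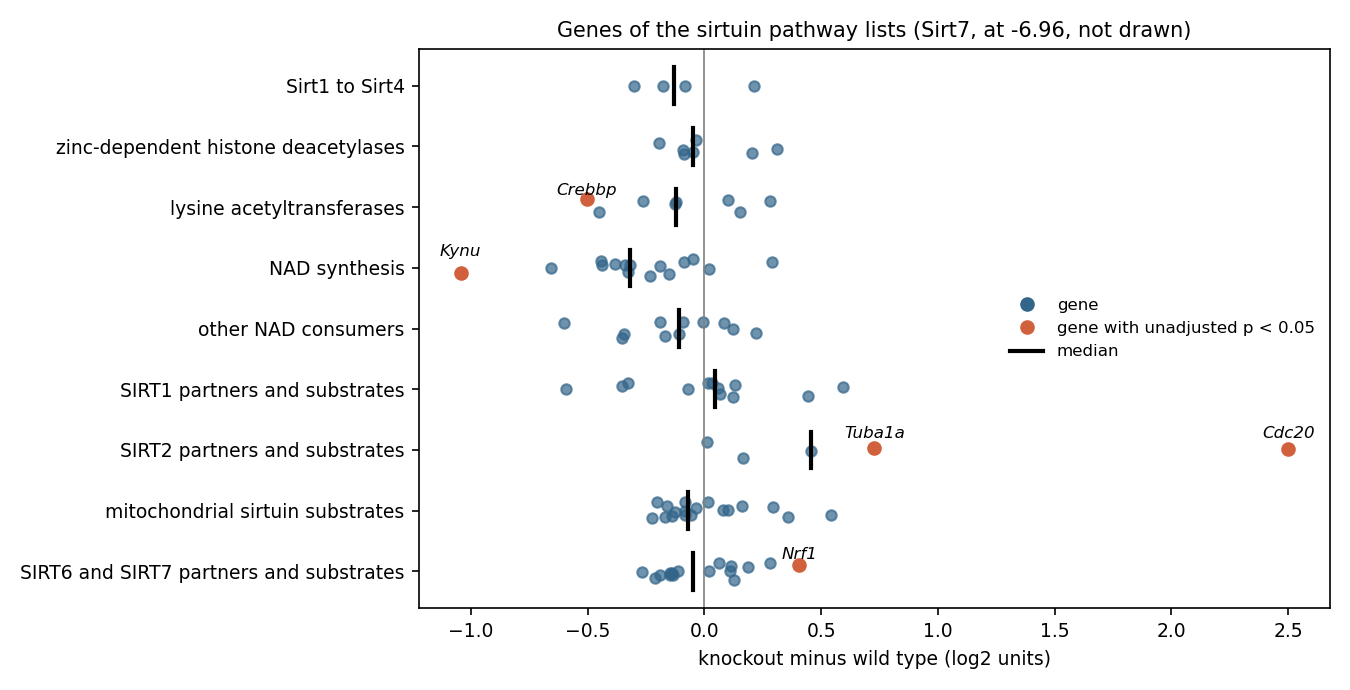
Knockout minus wild type in log2 units for Sirt1 to Sirt4 and for every tested gene of the 8 lists, 1 point per gene, with the list's median as a black bar and genes at an unadjusted limma p under 0.05 in orange with their names. All but 5 list genes lie within 0.6 log2 units of 0, and 5 genes are orange; Cdc20 lies farthest out, at 2.50.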

How the data were processed

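Liver RNA was measured on 6 arrays. The authors deposited 1 log2 value per probe set and array, for which the submitters' processing notes name GCRMA (version 2.20.0) and R (version 2.11.1); the log2 scale was read from the values. GCRMA pulls unexpressed transcripts to low values, and no detection calls are given; the number of arrays limits the precision. Of 22626 probe sets, 20380 had 1 symbol in the platform annotation; each gene took its brightest probe set, and a mean log2 value of at least 4 was required.

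Groups were compared by limma (version 3.58.1, under R 4.3.3; lmFit with eBayes, 2-sided, no replicate block), tested on simulated data, with Benjamini-Hochberg adjustment over 8343 genes and a threshold of 0.05. Named genes were, with exceptions said in the text, the members, the 2 tested genes of each list with the smallest p, and the 3 genes most like each member. The SIRT2 list holds Cdh1, the E-cadherin gene, entered in error for the co-activator Fzr1, and Kat2a is on 2 lists. List entries were matched by symbol or through the RefSeq gene table of GRCm38.p6. Members and lists were chosen with earlier results of these data known. Alternatives covered the filter, probe sets, scaling, weights, variance model, ordinary test, replicate block and leaving out each array.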

Additional observations from a re-analysis of the deposited data

How the results depend on the processing

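Each measured sirtuin gene has 1 probe set. The filter, probe set, variance model, ordinary test and replicate block settings therefore could not change its difference. Only scaling, array weights and leaving out 1 array could. Sirt1, Sirt2 and Sirt3 kept their direction under all 16 alternatives. Sirt4 did so in 14 of them, turning to 0.083 without wild-type replicate 3 and to 0.022 without knockout replicate 2. Its range without 1 array was -0.25 to 0.083. None of the 4 genes was called in any alternative. Sirt7 kept its fall in all 16 and passed the threshold in 15. With the ordinary 2-sample test it was -6.96 with an adjusted p of 0.0592; that test takes each gene's spread from 4 residual degrees of freedom alone. Without 1 array Sirt7 lay between -7.12 and -6.76. Over all genes, 2 were called, 1 with the mean of probe sets, 0 with the ordinary 2-sample test (405 unadjusted, against 539 with limma), 1748 with array weights, and between 1 and 38 without 1 array, the most without wild-type replicate 3. In the pathway lists 18 genes were called with array weights and 0 otherwise; the cause was not tested. The weights ran from 0.31 for knockout replicate 3 to 6.12 for knockout replicate 2. The alternatives were applied to the named pathway genes after their values were seen, and 3 of them turned in sign: Elk4 with the mean of probe sets (0.024), Myc with array weights (0.11) and without 1 array (range -0.38 to 0.15), and Nampt without 1 array (range -0.18 to 0.12). No pairing by replicate number was visible. Deviations of same-numbered livers correlated at -0.089, -0.092 and -0.19, against -0.251 to 0.315 for the other pairs of a wild-type and a knockout liver. So few values cannot exclude a pairing. With the number as a replicate block, limma called 2 genes, Sirt7 had an adjusted p of 0.0015 and no sirtuin call changed.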
